A study of Mus musculus with 36 samples.

Results

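The genes described here are 10 members of the NRF2 antioxidant pathway, chosen by name with earlier results of these data known: Nfe2l2, Keap1, Slc7a11, Gclc, Gclm, Nqo1, Hmox1, Txnrd1, Srxn1 and Gpx2. All 10 were listed in both count tables, among 20181 genes in the Lrig1 table and 22587 genes in the Lgr5 table, and all 10 passed the filter on low counts in each. NRF2, the protein of Nfe2l2, is a transcription factor that is made all the time and kept scarce by Keap1, an adaptor that hands it to a ubiquitin ligase. When oxidants or electrophiles modify Keap1, NRF2 accumulates, pairs with small MAF proteins and binds antioxidant response elements near genes for glutathione and thioredoxin chemistry. In skin the pathway is known for protecting keratinocytes from oxidants and is studied in wound repair.

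The libraries were mini-bulk RNA-seq of small pools of sorted tdTomato+ epidermal cells from the tail skin of young adult mice of both sexes. The mice were Lrig1-EGFP-ires-CreERT2 or Lgr5-EGFP-ires-CreERT2 animals carrying Rosa26-fl/STOP/fl-tdTomato, and every mouse, including those of the unwounded group, had received a single topical dose of hydroxytamoxifen, so that cells expressing Lrig1 (upper hair follicle) or Lgr5 (lower hair follicle) and all their later descendants were red. A full-thickness wound was made and cells were collected before it (0W) and 1, 2, 4 and 8 weeks after it (1W, 2W, 4W, 8W), and the 9W group was collected 1 week after a second, overlapping wound made at 8 weeks. Each population had 3 libraries at each of the 6 time points, 36 libraries in all. The sorted zone held both the wound bed and hair follicles around it, so the libraries do not separate the 2 sites, and the label marks descent, not the present state of a cell. The 2 populations came from different mouse lines and separate tables, so population, line and preparation cannot be told apart.

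Total counts ranged from 765252 to 3365666 (median 1930063) in the Lrig1 libraries and from 1297798 to 6960537 (median 4284763) in the Lgr5 libraries. Values below are CPM, counts scaled to TMM-normalised library size, unless stated otherwise, and a count of 3 corresponded to 1.01 to 3.39 CPM in the Lrig1 and 0.389 to 2.92 CPM in the Lgr5 libraries. All 6 keratinocyte markers (Krt5, Krt14, Krt15, Trp63, Cdh1 and Epcam) were detected in every library, and the summed leukocyte markers stayed at or below 53.7 CPM. Of these, Lyz2, C1qa, Cd3e and Cd207 were not listed in either table, nor Adgre1 and Csf1r in the Lrig1 table. The summed fibroblast markers were 2.52 to 89.6 CPM in the Lrig1 libraries and 54.9 to 378 CPM in the Lgr5 libraries. Of the fibroblast markers, Lum was not listed in the Lrig1 table. A single transcript, Gm12415, took 12.04 to 52.1% of the counts of the Lgr5 libraries. The spread between libraries of a group was wide, with a common biological coefficient of variation of 0.698 in the Lrig1 and 0.662 in the Lgr5 fit. In data simulated with these means, spreads and depths, the edgeR quasi-likelihood test recovered 8.25% of genes changed 4-fold at 1W in the Lrig1 design and 8.47% in the Lgr5 design, so changes of that size could often go undetected. Where groups are said below not to overlap, this is a description. Against 0W, 10.6 to 27.7% of all tested genes had no overlap in the Lrig1 and 11.2 to 19.8% in the Lgr5 progeny.

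The promoter sequences show which members carry the DNA word that NRF2 reads. RefSeq promoters (GRCm38.p6, 250 bases before to 50 bases after the start) were at hand for 8 of the 10 genes, not for Hmox1 and Gclc, with 3 alternative starts for Txnrd1. The antioxidant response element core, TGACNNNGC read on both strands, was found in 4 of the 10 promoters of these 8 genes. They belong to Nfe2l2, Gclm, Txnrd1 and Srxn1. Among all 32851 promoters of the same length 12.4% held it. The matches are shown 5′ to 3′ on the strand of the gene with the core in capitals and 10 bases or fewer on each side.
Nfe2l2, chr2:75704885-75704913, minus strand, 240 bases before the start: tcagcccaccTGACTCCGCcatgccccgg
Gclm, chr3:122245413-122245441, plus strand, 134 bases before the start: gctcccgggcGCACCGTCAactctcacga
Txnrd1, chr10:82859104-82859132, plus strand, 92 bases before one of the 3 starts: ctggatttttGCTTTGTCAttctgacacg
Srxn1, chr2:152105542-152105570, plus strand, 28 bases after the start: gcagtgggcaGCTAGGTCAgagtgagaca
The Srxn1 promoter also held the AP-1 site TGANTCA, at 102 and at 45 bases before the start, a word present in 7.81% of all promoters. The match at 45 bases is followed by GC. It reads TGAGTCAGC, the searched antioxidant response element core except for G in place of C. The other searched word, TGATGNAA, is the composite element read by ATF4 and C/EBP factors in genes induced by amino acid shortage. It was present in 3.97% of all promoters and, among the members, only in that of Slc7a11. A match is a run of letters and not a measured binding site. Elements outside these windows and other forms of the core were not searched, so a promoter without a match may still hold an element.

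Slc7a11 codes for the xCT subunit of the antiporter that brings cystine into the cell in exchange for glutamate, the first supply step of glutathione synthesis. In the Lgr5 progeny it rose at 4W, the one time point at which it passed the threshold. The gene lies on the minus strand of chromosome 3 (GRCm38, chr3:49892526-50443614). The 250 bases before its start are shown because this was the member with the largest change, with both TGATGNAA matches in capitals, the second one on the opposite strand.
Slc7a11, chr3:50443614-50443863, minus strand: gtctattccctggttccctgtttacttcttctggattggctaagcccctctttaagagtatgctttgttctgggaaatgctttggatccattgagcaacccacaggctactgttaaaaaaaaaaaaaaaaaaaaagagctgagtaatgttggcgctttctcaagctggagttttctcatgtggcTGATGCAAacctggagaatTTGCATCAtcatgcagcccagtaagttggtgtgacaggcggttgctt
The Lgr5 libraries of 0W held Slc7a11 at 12.9, 4.98 and 7.93 CPM. At 1W it was 31.6, 7.36 and 18.8 CPM and at 2W it was 7.48, 19.5 and 10.01 CPM. At 4W the 3 libraries held 329, 109.8 and 94.1 CPM. At 8W the values were back at 5.74, 8.53 and 11.6 CPM and at 9W they were 16.3, 4.83 and 7.15 CPM. All 3 libraries of 4W lay above every other Lgr5 library, and the other groups overlapped each other.

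The change of Slc7a11 at 4W against 0W was 4.36 on the log2 scale (SE 0.69, 95% interval 3.00 to 5.71, 20.5-fold, edgeR quasi-likelihood adjusted p = 0.0193). It was the only member called across the Lgr5 time course (adjusted p = 0.00201), where 1.13% of 18025 genes were called, and the only one called at 4W, where 0.155% were. A gene was called at an adjusted p under 0.05 with a log2 fold change above 1 in size, and these percentages are the share of all tested genes called in the same comparison. Leaving out 1 library at a time kept the change between 3.55 and 4.79, with adjusted p from 0.0104 to 0.0997. The call at 4W was lost without any one of the 3 libraries of 0W and without the 4W library at 329 CPM, 4 of 18 cases, while the call across the time course held in all 18. The 4W libraries were shallow (1297798 to 2116933 counts). Their summed keratinocyte markers were 9459 to 12168 CPM against 23020 to 29810 CPM at 0W, with all 6 markers detected. The summed upper-follicle markers were 1469 to 1775 CPM at 4W against 105 to 1404 CPM at 0W, and the summed bulge markers 1089 to 1704 CPM against 1759 to 3357 CPM, with no overlap for either. The part of these differences in the result was not tested, and in such pools fewer cells of a type and less RNA per cell cannot be told apart. Pigment cells also use this antiporter. The melanocyte markers Dct and Pmel summed to 1.94 to 24.2 CPM at 4W and to 5.81 to 25.6 CPM at 0W, ranges that overlap, and the other melanocyte markers, Mlana and Tyrp1, were not listed. The summed fibroblast markers were 124 to 146 CPM at 4W and 122 to 358 CPM at 0W. In the annotation 5 other features overlap Slc7a11, the antisense gene Gm37854, the processed pseudogenes Gm37826, Gm2345 and Gm37692 and the unclassified transcript Gm37498, the last 2 on the same strand. These overlaps are of whole gene spans, introns included, while the study counted reads over exons. Its methods list no strand option for the counting, and how reads from shared stretches were assigned was not examined.

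Slc7a11 showed no such step in the Lrig1 progeny. It was 6.67, 10.2 and 57.0 CPM at 0W and 37.3, 5.56 and 70.9 CPM at 4W, a log2 change of 0.64 (SE 0.91, adjusted p = 0.911). Its lowest Lrig1 values at the other times were 5.50 CPM at 8W and 6.30 CPM at 2W, and its highest was 58.0 CPM at 9W. The difference in change between the populations at 4W was -3.77 on the log2 scale (Lrig1 minus Lgr5, SE 1.16, 95% interval -6.05 to -1.50), with an adjusted p of 0.237, so it was not past the threshold.

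**Figure D1:**
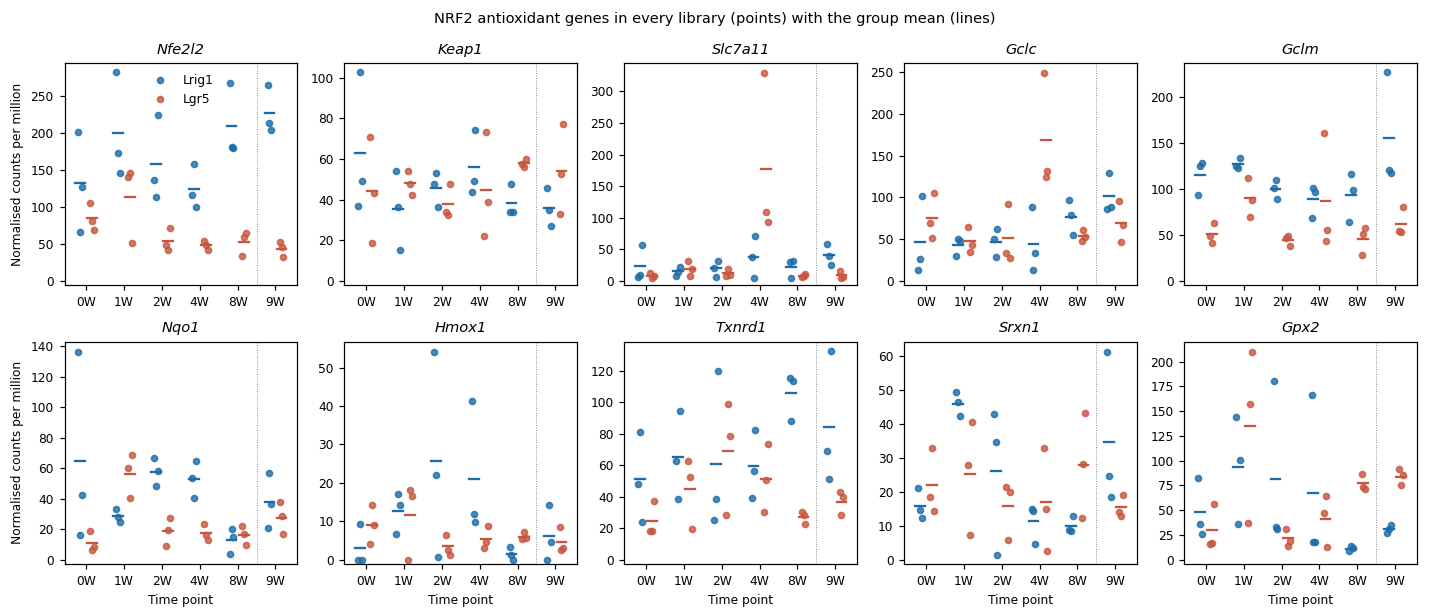
CPM of the 10 genes at each time point, 1 point per library and 1 horizontal line per group mean, Lrig1 progeny in blue and Lgr5 progeny in red, with a dotted line before the group of the second wound. The Lgr5 points of Slc7a11 at 4W (94.1 to 329 CPM) stand above all other Lgr5 points of that gene, and those of Nqo1 at 1W (40.2 to 68.7 CPM) stand above all other Lgr5 points of Nqo1.

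Gclc and Gclm code for the catalytic and the modifier subunit of glutamate-cysteine ligase, which makes the rate-limiting bond of glutathione from the cysteine that the antiporter supplies. Gclc in the Lgr5 progeny was 69.7, 52.1 and 105.8 CPM at 0W and 249, 124 and 132 CPM at 4W. The 4W libraries lay above those of 0W, and the log2 change was 1.15 (SE 0.45) with an adjusted p of 0.368, not past the threshold. At the other times Lgr5 values of Gclc ran from 27.6 to 95.3 CPM. Gclm in the Lgr5 progeny was 48.6, 41.3 and 62.7 CPM at 0W, 112, 70.2 and 87.7 CPM at 1W and 161, 44.003 and 55.8 CPM at 4W. Only the 1W libraries lay wholly above 0W, with a log2 change of 0.83 (SE 0.42, adjusted p = 0.3001). The highest 4W values of Slc7a11 (329 CPM), Gclc (249 CPM) and Gclm (161 CPM) came from the same library, so they are not independent. In that library Gm12415 took 52.1% of the counts and 17301 genes were detected, the fewest of the Lgr5 libraries.
Gclc in the Lrig1 progeny spread over 13.9, 26.8 and 101.2 CPM at 0W and stood at 86.4, 129.8 and 88.8 CPM at 9W. The 9W values overlapped those of 0W and lay above those of 1W (30.4, 49.8 and 48.0 CPM), with a log2 change of 1.25 against 1W (SE 0.67, adjusted p = 0.605). Gclm had the smallest spread relative to its mean of the 10 members in these cells (18.02 ± 5.48 CPM per kilobase of exon, SD over 18 libraries), at 93.9, 125 and 128 CPM at 0W and between 64.1 and 227 CPM in all other libraries. Its 9W values, 227, 121 and 118 CPM, lay above those of 8W, 64.1, 116 and 99.2 CPM, by 0.74 on the log2 scale (SE 0.32, adjusted p = 0.858).

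Nqo1 codes for a quinone reductase and is widely read as a reporter of NRF2 activity. It rose in the Lgr5 progeny 1 week after the first wound. It was 18.8, 6.23 and 8.27 CPM at 0W and 60.0, 40.2 and 68.7 CPM at 1W, and the groups did not overlap, as for 19.8% of all tested genes. The log2 change was 2.34 (SE 0.55, 95% interval 1.25 to 3.42, 5.06-fold) with an edgeR adjusted p of 0.0456, and 1.29% of all genes were called in this comparison. The summed bulge markers were 496 to 1265 CPM at 1W against 1759 to 3357 CPM at 0W, while the keratinocyte markers overlapped (25441 to 31228 CPM against 23020 to 29810 CPM), and the part of the bulge difference in the result was not tested. The call was marginal. Leaving out 1 library at a time moved the log2 change between 2.04 and 2.95 and the adjusted p between 0.0422 and 0.154, and the call was lost in 14 of 18 cases: without the 0W library at 18.8, 6.23 or 8.27 CPM, without the 1W library at 60.0 or 68.7 CPM, without 1 of the 2W, without 2 of the 4W libraries, and without any of the 8W or 9W libraries. It was also lost with 2 surrogate variables (adjusted p = 0.224), with limma-voom (adjusted p = 0.0598) and with a looser or no filter on low counts (adjusted p = 0.0574). At 2W, 4W and 8W the Lgr5 values of Nqo1 ran from 8.75 to 27.4 CPM. After the second wound they were 37.9, 28.3 and 16.6 CPM, below all 3 libraries of 1W. The difference between the 2 wounds, 9W against 1W, was -1.03 on the log2 scale (SE 0.53, adjusted p = 0.337).

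The Lrig1 libraries of 0W held Nqo1 at 136.5, 16.2 and 42.3 CPM, a spread wider than most of its changes. At 1W it was 33.2, 28.3 and 24.5 CPM, and at 8W it was 3.64, 20.2 and 15.01 CPM. The 8W group overlapped 0W through the library at 16.2 CPM. The log2 change at 8W was -2.34 (SE 0.69, 95% interval -3.70 to -0.98, adjusted p = 0.0671) by the quasi-likelihood test, not past the threshold, and leaving out the 0W library at 16.2 CPM gave the only leave-one-out call. At 9W the values were 20.8, 56.9 and 36.8 CPM, above the 8W libraries by 1.58 on the log2 scale (SE 0.68, adjusted p = 0.858). Before wounding, Nqo1 was higher in the Lrig1 than in the Lgr5 libraries by 2.18 on the log2 scale (SE 0.63, adjusted p = 0.0532), which also missed the threshold. The change at 1W differed between the populations by -3.53 on the log2 scale (SE 0.88, 95% interval -5.25 to -1.80, adjusted p = 0.0747) and the change at 8W by -2.80 (SE 0.88, adjusted p = 0.0961). Both comparisons use the same 0W libraries, including the Lrig1 library at 136.5 CPM, and each of these results moved with single libraries. Without the library at 136.5 CPM the log2 change at 8W was -1.18, the difference at 0W 1.03, and the differences in change -2.34 at 1W and -1.64 at 8W. Over all libraries left out in turn they ran from -2.84 to -1.18 (adjusted p 0.03 to 0.314), from 1.03 to 2.84 (0.0137 to 0.43), from -4.15 to -2.34 (0.0215 to 0.25) and from -3.44 to -1.64 (0.0394 to 0.335). All 4 passed the threshold without the Lrig1 0W library at 16.2 CPM, and the difference at 0W also without Lrig1 8W library a or Lgr5 0W or 2W library a.

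Gpx2 is a selenium-containing glutathione peroxidase of epithelia, which reduces hydrogen peroxide at the expense of glutathione. In the Lgr5 progeny it was 16.1, 16.8 and 55.8 CPM at 0W and 36.5, 157 and 210.0 CPM at 1W. The log2 change was 2.20 (SE 0.62, adjusted p = 0.0814), not past the threshold, and the groups overlapped. Leaving out 1 library at a time gave 1.71 to 3.01 (adjusted p 0.0358 to 0.227), with 1.71 without the 1W library at 210.0 CPM and 3.01, past the threshold, without the 0W library at 55.8 CPM. At 8W it stood at 86.6, 73.6 and 71.2 CPM and at 9W at 91.3, 75.0 and 85.1 CPM, in both groups above all 0W libraries and close together. The log2 changes were 1.39 (SE 0.61, adjusted p = 0.792) at 8W and 1.51 (SE 0.61, adjusted p = 0.711) at 9W.
Gpx2 in the Lrig1 progeny was 82.1, 36.1 and 25.6 CPM at 0W and 8.38, 14.1 and 11.3 CPM at 8W, so the 8W libraries lay below all those of 0W. The log2 change was -2.10 (SE 0.87, adjusted p = 0.162), not past the threshold, and it turned to 0.39 in the fit with 2 surrogate variables. The Lrig1 libraries of 8W also differed from 0W in the share of mitochondrial counts (10.9 to 14.4% against 3.15 to 5.38%). Their summed keratinocyte, bulge and upper-follicle markers were lower, with values given below. The part of these differences in the 8W results of Gpx2, Nqo1 and Txnrd1 was not tested. At 2W and 4W 1 library each, at 180.1 and 165.8 CPM, stood far above its 2 neighbours (17.3 to 33.4 CPM). At 9W the values were 26.4, 31.1 and 34.9 CPM, above those of 8W, and 17.7% of all tested genes had no overlap in this comparison. Gpx2 shares its locus with Fntb on the other strand, so its counts may hold reads of that gene. Other members overlap features on their own strand. They are Txnrd1 with the protein-coding gene Eid3, Gclm with the processed pseudogene Gm6061 and Nfe2l2 with the small nuclear RNA Gm24996. As for Slc7a11, these overlaps are of whole gene spans, and how shared reads were assigned was not examined.

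Nfe2l2 and Keap1 are the regulators. In the Lrig1 progeny Nfe2l2 was 202, 66.2 and 127 CPM at 0W, 267, 181 and 180.1 CPM at 8W and 265, 213 and 204 CPM at 9W. The 9W libraries lay above all 0W libraries, with a log2 change of 0.79 (SE 0.39, adjusted p = 0.291). In the Lgr5 progeny it was 106.0, 81.1 and 68.9 CPM at 0W and 141, 146 and 52.1 CPM at 1W. It then stood at 54.5, 49.0 and 41.7 CPM at 4W, 34.5, 59.0 and 64.6 CPM at 8W and 52.7, 46.3 and 32.8 CPM at 9W, in these 3 groups below every 0W library. The log2 changes against 0W were -0.82 (SE 0.39, adjusted p = 0.461) at 4W and -0.95 (SE 0.38, adjusted p = 0.711) at 9W. Between the wounds, 9W against 1W, Nfe2l2 differed by -1.35 on the log2 scale in the Lgr5 progeny (SE 0.39, adjusted p = 0.117). None of these passed the threshold.
The change of Nfe2l2 at 9W differed between the populations by 1.79 on the log2 scale (SE 0.55, 95% interval 0.72 to 2.86, adjusted p = 0.159). Keap1 showed no group apart from 0W in either population. It was 36.9, 102.7 and 49.3 CPM in the Lrig1 and 70.8, 18.9 and 43.1 CPM in the Lgr5 libraries of 0W, and its log2 changes against 0W ran from -0.85 at 1W (SE 0.50) in the Lrig1 to 0.39 at 8W (SE 0.46) in the Lgr5 progeny. Because NRF2 is controlled mainly through its protein, these transcript levels do not measure its activity.

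Txnrd1 and Srxn1 serve the thioredoxin side of the pathway. Txnrd1, the cytosolic thioredoxin reductase, was 17.9, 18.1 and 37.6 CPM at 0W in the Lgr5 progeny and 28.5, 99.2 and 78.8 CPM at 2W. The groups overlapped, and the log2 change was 1.49 (SE 0.51, adjusted p = 0.379). Txnrd1 in the Lrig1 progeny was 48.2, 81.2 and 23.7 CPM at 0W and 115, 87.9 and 114 CPM at 8W, above all 0W libraries, with a log2 change of 1.04 (SE 0.58, adjusted p = 0.289). Srxn1, the sulfiredoxin that restores over-oxidised peroxiredoxins, was 21.0, 14.6 and 12.2 CPM at 0W and 49.4, 46.4 and 42.5 CPM at 1W in the Lrig1 progeny. The groups of Srxn1 did not overlap, as for 14.0% of all tested genes in this comparison. Its log2 change was 1.53 (SE 0.82, adjusted p = 0.510). At 8W it was 8.74, 8.55 and 12.9 CPM and at 9W 61.3, 24.7 and 18.4 CPM, so the libraries of both wounds lay above those of 8W. The log2 change at 9W against 8W was 1.79 (SE 0.83, adjusted p = 0.865). Srxn1 in the Lgr5 progeny ranged from 2.69 to 43.2 CPM with every group overlapping 0W.

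Hmox1, the inducible haem oxygenase that splits haem into biliverdin, iron and carbon monoxide, was low and uneven, at or under the level of 3 counts in some libraries. In the Lrig1 progeny 2 of 3 libraries at 0W held no count and the third stood at 9.34 CPM, and single libraries of 8W and 9W also held none. The highest values were 54.1 CPM at 2W and 41.3 CPM at 4W, each in 1 library, beside 22.0 and 0.676 CPM at 2W and 11.9 and 9.69 CPM at 4W. The 4W libraries lay above those of 0W by 2.68 on the log2 scale (SE 1.63, adjusted p = 0.713). Hmox1 in the Lgr5 progeny ranged from 0 to 18.1 CPM. A count of 0 allows a level of up to 3 counts, which is the 1.01 to 3.39 or 0.389 to 2.92 CPM given above and covers counting error only.

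**Figure D2:**
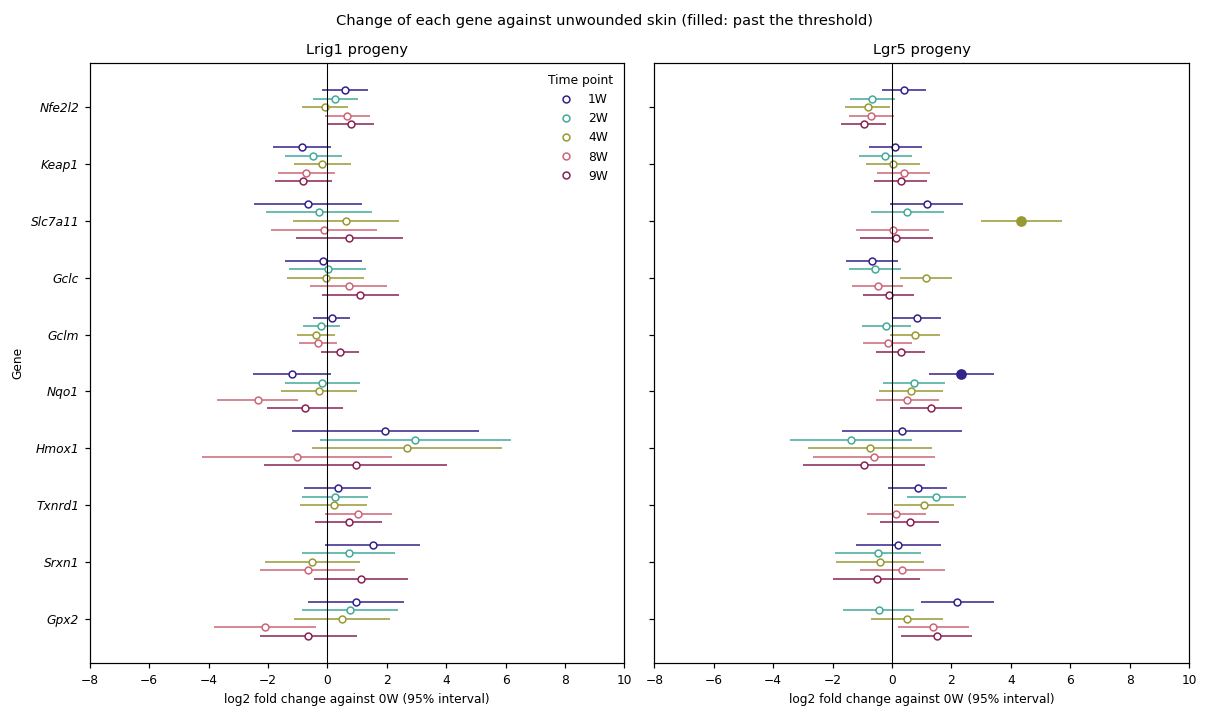
Log2 fold change of each gene against 0W with its approximate 95% interval, 1 colour per time point, Lrig1 progeny on the left and Lgr5 progeny on the right, with filled points for changes past the threshold. The 2 filled points are Slc7a11 at 4W (4.36) and Nqo1 at 1W (2.34), both in the Lgr5 progeny, and the intervals of Hmox1 are the widest.

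Counted over the list, none of the 10 members was called in the Lrig1 progeny, in any comparison, by the edgeR quasi-likelihood test. The shares of all 14306 tested genes called were 1.63% across the time course, 0.217% at 1W, 0% at 2W, 0.0419% at 4W, 2.82% at 8W and 1.23% at 9W, each against 0W. For 9W against 1W the share was 0% and for 9W against 8W 0.00699%, there with no minimum fold. At an unadjusted p under 0.05 there were 2 members across the time course (20.5% of all genes), 2 at 8W (Nqo1 and Gpx2, 22.9%), 3 for 9W against 8W (Nqo1, Gclm and Srxn1, 5.72%) and 0 in the remaining comparisons (8.37 to 18.5%). The likelihood ratio test and DESeq2 each called 1 member at 8W, Nqo1, where they called 9.84 and 11% of all genes, and none elsewhere in the Lrig1 progeny.
In the Lgr5 progeny the members called were 1 across the time course, 1 at 1W and 1 at 4W. None was called at 2W, 8W or 9W, where 0% of all genes were called in each, nor for 9W against 1W (0.266%) or 9W against 8W (0%). Unadjusted p was under 0.05 for 5 members across the time course (16.9% of all genes), 2 at 1W (18.6%), 1 at 2W (Txnrd1, 8.79%), 4 at 4W (10.7%), 1 at 8W (Gpx2, 5.94%), 3 at 9W (Nfe2l2, Nqo1 and Gpx2, 6.42%), 1 for 9W against 1W (Nfe2l2, 16.8%) and 0 for 9W against 8W (3.83%). The likelihood ratio test and DESeq2 called 4 members across the time course (Slc7a11, Nqo1, Gclc and Gpx2), beside 11 and 9.34% of all genes. They called 2 at 1W (Nqo1 and Gpx2, 6.56 and 7.81%), 1 at 4W (Slc7a11, 1.49 and 1.55%) and 1 for 9W against 1W (Nfe2l2, 4.24 and 5.32%). In the Lgr5 progeny Nqo1 and Gclm at 1W had no overlap with 0W (19.8% of all genes). Slc7a11, Gclc and Nfe2l2 had none at 4W (14.4%), and Gpx2 and Nfe2l2 none at 8W (11.2%) and 9W (12.5%). Nqo1 at 9W had no overlap with 1W (25.3%). The median log2 change of the 10 members was 0.61 at 1W in the Lgr5 progeny, with 9 of 10 above 0, against -0.08 over all genes. For the Lrig1 progeny it was 0.25 at 1W and -0.49 at 8W, with 6 and 3 of 10 above 0, against -0.05 and -0.01 over all genes. The members were read in the same libraries, so their signs are not independent.

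The test of the difference in change between the populations called none of the 10 members. The shares of all 16153 genes called were 0.0495% at 1W, 0% at 2W, 0.0929% at 4W, 1.11% at 8W and 0.155% at 9W against 0W, 0.0557% for 9W against 1W and 0% for 9W against 8W. Unadjusted p was under 0.05 for 1, 1, 2, 3, 2, 2 and 1 members in that order, beside 15, 9.34, 10.5, 17.6, 13, 12.7 and 4.95% of all genes. DESeq2 called 1 member at 1W (Nqo1, 2.95% of all genes), 1 at 4W (Slc7a11, 1.03%), 2 at 8W (Nqo1 and Gpx2, 5.42%) and 1 at 9W (Nfe2l2, 2%). The likelihood ratio test called Nqo1 at 1W (2.53%) and Nqo1 and Gpx2 at 8W (4.29%), and limma-voom called none. At 0W 2.86% of genes differed between the populations and none of the members did, with an unadjusted p under 0.05 for 2 (Nqo1 and Gclm, beside 17.5% of all genes). The likelihood ratio test and DESeq2 each called 1, Nqo1, beside 5.91 and 6.46%. Failing the threshold does not show that the populations responded alike, as the intervals span several-fold changes.

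**Figure D3:**
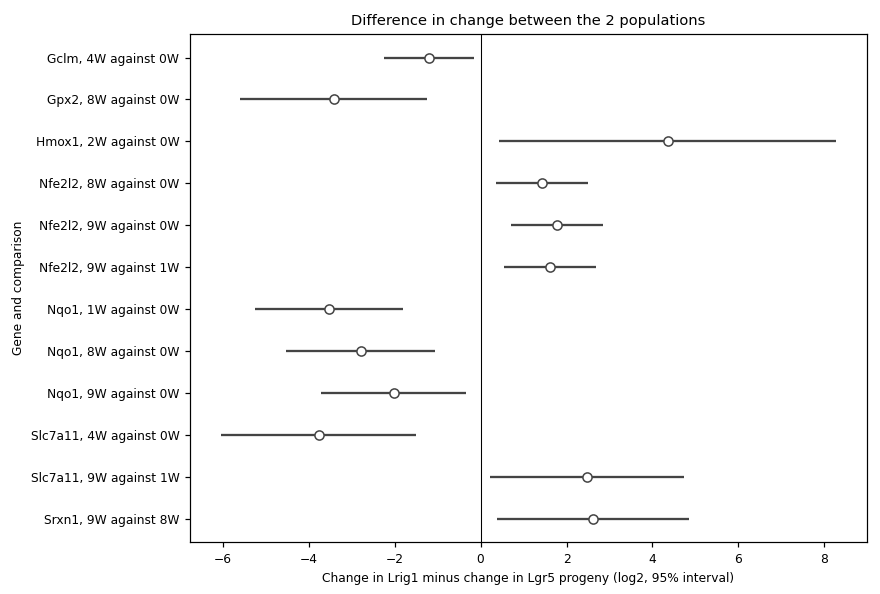
Change in Lrig1 minus change in Lgr5 progeny on the log2 scale (points) with approximate 95% intervals (bars) for the 12 gene and comparison pairs with an unadjusted p under 0.05. Nqo1 and Gpx2 lie on the negative side (-3.53 to -2.02), the Nfe2l2 pairs on the positive side (1.44 to 1.79), Hmox1 at 2W has the widest interval (4.35, 0.43 to 8.28), and none passed the threshold after adjustment.

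Levels of the members can be set beside each other only per length, as CPM per kilobase of exon. In the Lrig1 libraries of 0W Nqo1 led with a mean of 41.9 ± 40.7 (SD, n = 3), followed by Nfe2l2 at 34.7 ± 17.9 and Gclm at 18.4 ± 2.99. Gpx2 (14.9 ± 9.33), Keap1 (13.4 ± 7.45) and Gclc (12.6 ± 12.5) came next, and these neighbours did not differ beyond their spread. Txnrd1 (7.20 ± 4.07) and Srxn1 (5.65 ± 1.63) were lower, and Hmox1 (1.78 ± 3.08) and Slc7a11 (1.77 ± 2.02) were lowest. In the Lgr5 libraries of 0W Nfe2l2 (22.5 ± 4.97) and Gclc (20.1 ± 7.27) led. Keap1 (9.43 ± 5.53), Gpx2 (9.18 ± 7.06), Gclm (8.08 ± 1.73), Srxn1 (7.78 ± 3.46) and Nqo1 (7.15 ± 4.36) followed with overlapping ranges. Hmox1 (5.21 ± 2.92) and Txnrd1 (3.46 ± 1.60) were lower still, and Slc7a11 (0.619 ± 0.289) was lowest.

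Of 70 other genes of the pathway, in 7 lists, 65 were tested in the Lrig1 and 68 in the Lgr5 progeny. Beside 2.82% of all tested genes (217 higher and 187 lower), 7 of the 65 were called lower in the Lrig1 progeny at 8W and none higher. The glutathione peroxidases Gpx1 and Gpx4, which clear hydrogen peroxide and lipid peroxides, were among them. Gpx1 went from 932, 522 and 813 CPM at 0W to 352, 290 and 353 CPM at 8W (log2 change -1.19, SE 0.25, adjusted p = 0.0238) and Gpx4 from 336, 182 and 120 CPM to 71.7, 71.5 and 64.9 CPM (-1.62, SE 0.41). The peroxiredoxin Prdx2 fell by 1.12 on the log2 scale (SE 0.29). From the NADPH list G6pdx, the entry enzyme of the pentose phosphate pathway, fell by 1.68 (SE 0.43) and the transketolase Tkt by 1.07 (SE 0.27). Among detoxification genes the aldehyde dehydrogenase Aldh3a1 fell by 1.68 (SE 0.43) and the epoxide hydrolase Ephx1 by 1.52 (SE 0.32). Their adjusted p-values lay between 0.0238 and 0.0476.
The median of the 65 genes was -0.61 against -0.01 over all genes, with 12 above and 52 below 0. The lists were chosen with earlier results of these data known, and the count of 7 was chosen after seeing the data. That count depended on the fit. It was 2 (Ephx1 and Gpx1) with limma-voom and with a looser or no filter, 2 (Blvra and Mgst1) after removing the trend with GC content and 0 with 2 surrogate variables. It was 18 with the likelihood ratio test and 17 with DESeq2, beside 9.84 and 11% of all genes. Leaving out 1 library gave 0 to 10, with 0 without the 0W library 1 or any one of the 8W libraries, and 2 or 3 without the 0W library 3 or without 2 of the 1W, 1 of the 2W, all of the 4W (1 at a time) or 2 of the 9W libraries. The 8W libraries also differed from 0W in the share of mitochondrial counts (10.9 to 14.4% against 3.15 to 5.38%) and in summed keratinocyte markers (11522 to 16947 CPM against 19345 to 23450 CPM, 6 of 6 detected). Summed bulge markers were 612 to 859 CPM against 1292 to 2357 CPM and summed upper-follicle markers 1959 to 2726 CPM against 3153 to 3489 CPM. The part of these differences in the result was not tested.

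At other times in the Lrig1 progeny Aldh3a1 fell at 1W, from 795, 527 and 409 CPM to 91.1, 79.2 and 158 CPM (log2 change -2.39, SE 0.44, adjusted p = 0.0291), where 0.217% of all genes were called. Ephx1 fell at 9W, from 262, 299 and 325 CPM to 93.9, 84.6 and 85.5 CPM (-1.75, SE 0.32, adjusted p = 0.0198), where 1.23% were. Summed upper-follicle markers were 1102 to 2400 CPM at 1W and 1016 to 2186 CPM at 9W against 3153 to 3489 CPM at 0W. Summed bulge markers were 337 to 910 and 276 to 564 CPM against 1292 to 2357 CPM. Summed sebaceous markers at 1W were 170 to 273 CPM against 317 to 1116 CPM. The part of these differences in the 2 falls was not tested. Across the time course Gpx1, Aldh3a1 and Ephx1 were called lower and Sprr2h higher, beside 1.63% of all genes. Sprr2h, a cornified envelope gene that is induced when NRF2 is activated in keratinocytes, held 0, 0 and 3.20 CPM at 0W, 164, 4.52 and 129 CPM at 1W and 57.1, 46.0 and 29.6 CPM at 9W (adjusted p = 0.0275 across the time course). It belongs to a family of near-identical Sprr2 copies, so its counts are uncertain.

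In the Lgr5 progeny at 1W, 12 of 13 glutathione genes, 12 of 14 thioredoxin and peroxide genes and 6 of 6 NADPH genes had log2 changes above 0, with medians of 1.01, 0.52 and 0.47 against -0.08 over all genes. Iron and haem genes had 6 above and 1 below 0 and keratinocyte genes 5 above. Detoxification genes had 7 above and 5 below (median 0.24) and regulators 4 above and 7 below (-0.13). Genes of a list come from the same libraries, so these counts are not independent. Of the glutathione, thioredoxin and NADPH genes only Gpx1 was called. It rose from 238, 249.9 and 222 CPM to 703, 468 and 631 CPM (log2 change 1.34, SE 0.29, adjusted p = 0.0328). Among the regulators Mafk, a small MAF partner of NRF2, fell from 62.2, 50.01 and 49.97 CPM to 6.85, 6.79 and 14.6 CPM (-2.49, SE 0.41, adjusted p = 0.0136). After the second wound Mafk was 32.0, 39.5 and 48.6 CPM, above 1W by 2.05 on the log2 scale (SE 0.40, adjusted p = 0.0362). Nfe2l1, a relative of Nfe2l2 that controls proteasome genes, fell by 1.58 on the log2 scale at 1W (SE 0.38, adjusted p = 0.0470). Gsto1, a glutathione transferase, and Txn1, thioredoxin, were called across the time course (adjusted p = 0.0252 and 0.0483), where 1.13% of all genes were. Gsto1 was highest at 1W (351 to 650.1 CPM against 151 to 191 CPM at 0W), and Txn1 was 163 to 361 CPM at 4W against 435 to 503 CPM at 0W. The count of 3 at 1W (Gpx1, Mafk and Nfe2l1) stood beside 1.29% of all genes. It was 9 with the likelihood ratio test (6.56% of all genes), 9 with DESeq2 (7.81%) and 0 with 2 surrogate variables, and 0 to 3 with 1 library left out. It was 0 without the 1W library 1, and 1 without either of 2 libraries of 0W or without 1 library of 4W, 8W or 9W.

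Between the populations at 0W, 5 of the other pathway genes were called, beside 2.86% of all genes (178 higher and 284 lower in the Lrig1 progeny). All 5 were higher in the Lrig1 progeny. They were Gpx1 (log2 difference 1.33, SE 0.27), the microsomal glutathione transferases Mgst1 (3.51, SE 0.58) and Mgst2 (2.60, SE 0.58), the exporter Abcc4 (2.39, SE 0.53) and Aldh3a1 (3.72, SE 0.95). Mgst1 stood at 1495, 281 and 423 CPM in the Lrig1 and 59.0, 30.9 and 61.3 CPM in the Lgr5 libraries. The summed differentiated interfollicular markers at 0W were 4632 to 19726 CPM in the Lrig1 and 185 to 1231 CPM in the Lgr5 libraries. The summed upper-follicle markers were 3153 to 3489 against 105 to 1404 CPM, while the keratinocyte and bulge sums overlapped. The part of these differences in the 5 calls was not tested. The change at 8W differed between the populations for Mgst3 by -1.87 on the log2 scale (SE 0.46, adjusted p = 0.0408) and for Tkt by -1.36 (SE 0.33, adjusted p = 0.0386), where 1.11% of all genes were called. Mgst3 went from 299, 172 and 216 CPM to 94.3, 102.6 and 83.1 CPM in the Lrig1 and from 88.3, 88.0 and 119 CPM to 195, 123 and 143 CPM in the Lgr5 libraries. The part of the marker differences of the Lrig1 8W libraries in these 2 results was not tested. How the calls of this paragraph depend on the fit or on single libraries was not examined.

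**Figure D4:**
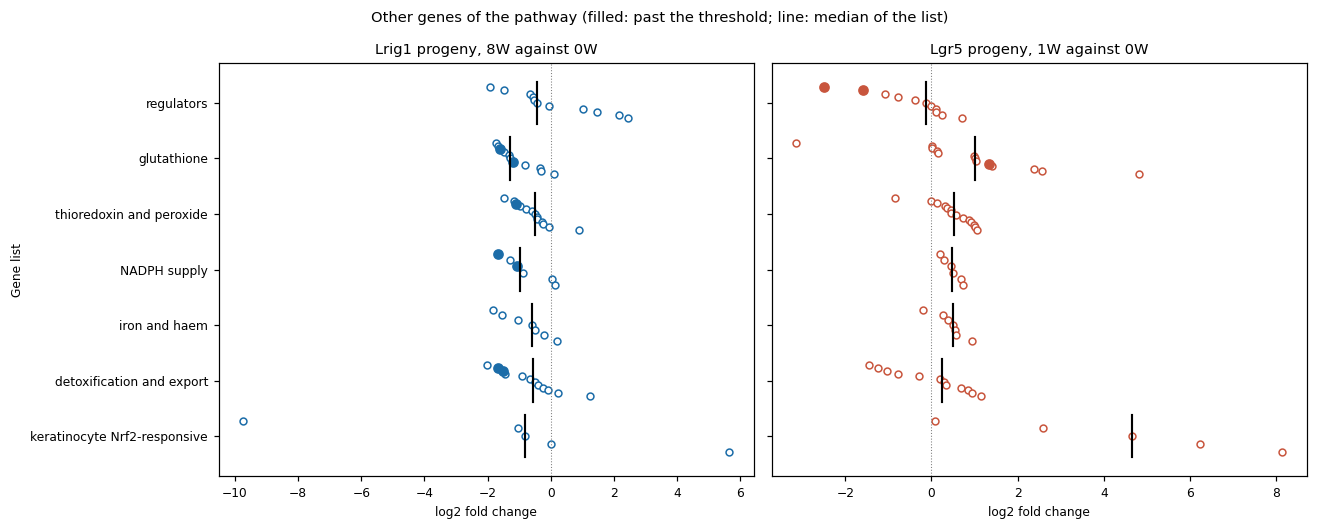
Log2 fold change of the other pathway genes, 1 point per gene in rows by list, in the Lrig1 progeny at 8W (left) and the Lgr5 progeny at 1W (right), with black lines for list medians and filled points for changes past the threshold. On the left 7 genes are filled and all lie below 0, and on the right Gpx1 lies above 0 and Mafk and Nfe2l1 below. The points furthest from 0 are keratinocyte genes with libraries at 0 counts.

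The genes whose levels followed Nfe2l2 and Nqo1 most closely over the 18 libraries of a population are given as a description, since depth and composition are shared by all genes of a library. For Nfe2l2 they were Chml, Kpna3 and P2ry1 in the Lrig1 (Pearson r = 0.82, 0.80 and 0.80 of log2 CPM) and Dusp3, Selenot and Cox17 in the Lgr5 progeny (0.81, 0.81 and 0.80). For Nqo1 they were Alg3, Ube2c and Cdca3 in the Lrig1 (0.88, 0.88 and 0.87) and Tbrg1, Fam213a and Hspd1 in the Lgr5 progeny (0.81, 0.79 and 0.79). They were picked as the highest of 9327 and 9156 genes, and no other member was among them.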

How the data were processed

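Mini-bulk RNA-seq (modified Smart-seq2) of sorted tdTomato+ tail epidermal cells was analysed in 36 libraries. The authors trimmed reads with Trim Galore (version 0.5.0), aligned them to GRCm38 with HISAT2, counted them per gene with featureCounts and GENCODE annotation, and deposited raw counts in 1 table per population. Of the columns, 15 matched 1 sample by label and 21 gave only the group. From these counts edgeR (4.0.16, R 4.3.3) was fitted per population over all genes passing filterByExpr (minimum count 10), with TMM factors. For differences between populations it was fitted over the 16153 genes that passed the filter among the 18865 in both tables. Quasi-likelihood F-tests were adjusted by the Benjamini-Hochberg method over all genes tested. Calls needed an adjusted p under 0.05 and, except for 9W against 1W or 8W and for differences in change, a log2 fold change above 1 in size. Intervals are normal approximations from the standard error.

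The fit was tested on simulated data. Alternatives used DESeq2 (1.42.0), limma-voom (3.58.1), sva (3.50.0), other scalings and filters, and left out libraries. The study describes 3 mice per group, and the labels do not tie libraries to mice, so p-values measure the spread between these libraries. Same-numbered libraries did not pair (Pearson r of deviations -0.0716 to 0.125). The members and lists were chosen with earlier results of these data known. All 10 members were named, other pathway genes where called, and for Nfe2l2 and Nqo1 the 3 genes of highest Pearson r (mean of at least 10 CPM). Gene positions and exon lengths come from GENCODE M21, promoters from RefSeq (GRCm38.p6).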

Additional observations from a re-analysis of the deposited data

Results flagged for a closer look

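For 2 members the 3 libraries of a group lay on opposite sides of their own 0W libraries in the 2 populations, 1 at 8W and 1 at 9W, beside 2.07% and 1.28% of the 13980 genes tested in both. Gpx2 at 8W was below all 0W libraries in the Lrig1 progeny and above all of them in the Lgr5 progeny, and the difference in change was -3.42 on the log2 scale (SE 1.11, adjusted p = 0.103). With 2 surrogate variables the change of Gpx2 at 8W in the Lrig1 progeny was 0.39 in place of -2.10. These 8W libraries also differed from 0W in mitochondrial share and marker sums, and the part of that in the result was not tested. Nfe2l2 at 9W was above all 0W libraries in the Lrig1 progeny and below all of them in the Lgr5 progeny, with a difference of 1.79 (SE 0.55, adjusted p = 0.159). Neither difference passed the threshold of the test.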

How the results depend on the processing

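Counts of called members kept within 1.5 times their value under DESeq2 size factors and removal of Gm12415, and a prior count of 2 changed no call of a single gene. The likelihood ratio test and DESeq2 each gave 1 in place of 0 at 8W in the Lrig1 progeny, 4 in place of 1 across the Lgr5 time course, 2 in place of 1 at 1W and 1 in place of 0 for 9W against 1W in the Lgr5 progeny, 1 and 2 in place of 0 for the difference in change at 1W and 8W, and 1 in place of 0 for the populations at 0W, where GC correction also gave 1. DESeq2 alone gave 1 for the differences at 4W and 9W. At 1W in the Lgr5 progeny 2 surrogate variables, limma-voom, no filter and a filter of 1 CPM in 3 libraries each gave 0. For the other pathway genes at 8W in the Lrig1 progeny the count of 7 became 18, 17, 0, 2, 2, 2 and 2 (likelihood ratio, DESeq2, surrogate variables, limma-voom, no filter, 1 CPM filter, GC correction), and at 1W in the Lgr5 progeny 3 became 9, 9 and 0 under the first 3 of these. The causes were not tested.

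Leaving out 1 library gave 1 to 2 members across the Lgr5 time course, 0 to 1 at 1W, 4W and 9W against 1W in the Lgr5 progeny, 0 to 1 at 8W in the Lrig1 progeny, 0 to 1 for the populations at 0W and for the differences at 1W and 8W, 0 to 10 other pathway genes at 8W in the Lrig1 and 0 to 3 at 1W in the Lgr5 progeny. The second members across the time course were Gpx2 (without 0W library c or 1W library 1) and Gclc (without 2W library b). Gpx2 was called at 1W (3.01, adjusted p = 0.0358) without Lgr5 0W library c. Nfe2l2 was called for 9W against 1W without Lgr5 1W library 3. Nqo1 was called at 8W and for the differences at 1W, 8W and 0W without Lrig1 0W library 2, and for 0W also without Lrig1 8W library a or Lgr5 0W or 2W library a. Of the results for single genes only Gpx2 at 8W in the Lrig1 progeny changed sign, to 0.39 with 2 surrogate variables. The replicate block, possible only for 0W, 1W and 9W of the Lrig1 and 1W and 9W of the Lgr5 progeny, gave 0 called members in each comparison, as did the same libraries without it, and changed no call. The interactions at 2W and 4W and for 9W against 8W, and the counts of other pathway genes, were chosen after seeing the data.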
